A study of Mus musculus with 16 samples.

Results

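The comparison described here is that of microglia, the resident macrophages of the brain, from mice with a conditional knockout of Rack1 (the group called CKO) against microglia from wild-type mice (WT), neither group carrying the Alzheimer's disease (AD) model. It rests on 4 RNA-seq libraries, 2 CKO and 2 WT, of the 16 samples of the series, picked by their labels. The comparison and the gene lists used below were chosen with earlier results of these data known. Another 4 microglia libraries, from AD mice without the knockout (AD WT) and with it (AD CKO), entered the same normalisation and fit, and are used to say whether a change was also seen on the AD background. The series text places the deletion in microglia. The Cre driver, the AD model, the age and sex of the mice, whether animals were pooled, and how microglia were isolated are not given in the sources used here. Nothing in the labels says that the libraries of a group came from separate animals, so p-values measure the spread between these libraries, which may be technical.

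RACK1 is a scaffold protein with a WD-repeat propeller that sits on the small ribosomal subunit near the mRNA exit. There it takes part in initiation and in the handling of stalled and collided ribosomes, and it was named for its binding of activated protein kinase C. Microglia at rest express a recognisable set of surface receptors and lysosomal genes, and on infection, injury or amyloid they turn on interferon-stimulated, antigen-presentation and lipid-handling genes.

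The 4 libraries held 30482559 and 30236747 assigned fragments in WT and 29545979 and 27741882 in CKO. Levels below are in CPM, counts divided by library size, after trimmed-mean (TMM) scaling over the 8 microglia libraries, and they compare libraries, not genes, since they are not divided by length. Across genes the log2 CPM of the WT pair correlated at r = 0.986 and that of the CKO pair at 0.985, while the WT-to-CKO pairs lay between 0.9651 and 0.9662. The replicates differed by more than sampling noise, with a chi-square of 5.72 times its degrees of freedom for the WT pair and 4.96 times for the CKO pair. Transcripts of the mitochondrial genome made up 0.981% and 0.893% of the WT counts and 1.43% and 1.33% of the CKO counts.

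Markers of microglia were abundant in all 4 libraries, and their sum was lower in CKO. The 10 microglial markers summed to 51500 and 53950 CPM in WT and to 33160 and 34370 CPM in CKO. Of the 10, 8 fell and C1qb rose by 0.15, a call lost without WT replicate 1 (0.09) or CKO replicate 2 (0.11). Markers of other cells were present and moved with the group. The 10 oligodendrocyte markers summed to 3140 and 3281 CPM in WT and 8216 and 8613 CPM in CKO, most of it from Mbp and Mobp. Of these markers 4 rose, and Mag and Cnp fell. The neutrophil markers summed to 249 and 232 CPM in WT and 633 and 633 CPM in CKO, with 9 of 10 higher. The border macrophage markers summed to 216 and 215 CPM against 512 and 512 CPM, a sum in which Ms4a7 and Mrc1 stood out. Of these 8 markers 5 rose, while Lyve1 (0.38), Cbr2 (-0.08) and Cd209f (-0.27) did not pass the test. The ependymal and choroid markers went the other way, from 1519 and 1465 CPM to 604 and 603 CPM. Astrocyte markers summed to 327 and 327 CPM in WT and 334 and 339 CPM in CKO. That sum hid moves of single genes: Slc1a3, at 193 and 188 CPM in WT, fell (-0.33), while 5 of the 10 rose, Aldh1l1 most (1.17). Endothelial markers summed to 520 and 516 CPM in WT and 566 and 557 CPM in CKO, with 4 of 9 higher. Monocyte markers summed to 104 and 106 CPM in WT and 168 and 165 CPM in CKO, with 5 of 8 higher. Neuronal markers summed to 17.8 and 18.1 CPM in WT and 41.2 and 38.1 CPM in CKO. Of all markers tested, 1 erythroid gene was at 0 in the 4 libraries. Fewer cells of a type and less RNA per cell cannot be told apart in such bulk libraries, and the part of other cells in the results below was not tested.

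Sex-linked transcripts also moved with the group. Xist, the long RNA of the inactive X chromosome, was at 191 and 188 CPM in WT and 259 and 237 CPM in CKO (log2 fold change 0.39 ± 0.05 SE). Ddx3y, a Y-linked RNA helicase, was at 7.63 and 5.48 CPM in WT and 0.0324 and 0.314 CPM in CKO. Eif2s3y was at 6.76 and 5.51 CPM in WT and 0.584 and 0.418 CPM in CKO. The WT libraries thus held both Xist and Y-linked RNA, and the Y-linked RNA was lower in both CKO libraries. In the AD pair the order was the opposite: Ddx3y was at 30.7 and 27.7 CPM in AD WT and 62.0 and 60.3 CPM in AD CKO, and Xist was at 143 and 156 CPM in AD WT and 84.7 and 79.3 CPM in AD CKO. The share of RNA from male mice and the knockout cannot be told apart in CKO against WT. The markers of oligodendrocytes, neutrophils and choroid cells reversed in the same way, with oligodendrocyte sums of 3739 and 3744 CPM in AD WT and 2257 and 2309 CPM in AD CKO. Of the 10 astrocyte markers 8 were called lower in AD CKO, and 4 were called in opposite directions on the 2 backgrounds. The sums of the border macrophage and microglial markers kept their direction, but not each gene: 4 of the 8 microglial falls were called there too, and P2ry12 was called higher (0.10). Cd163 had values of 0.40, a call lost without CKO replicate 2 (0.36), and -0.12 on the AD background. Most lists below are given also by the members called in the same direction on the AD background.

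**Figure D1:**
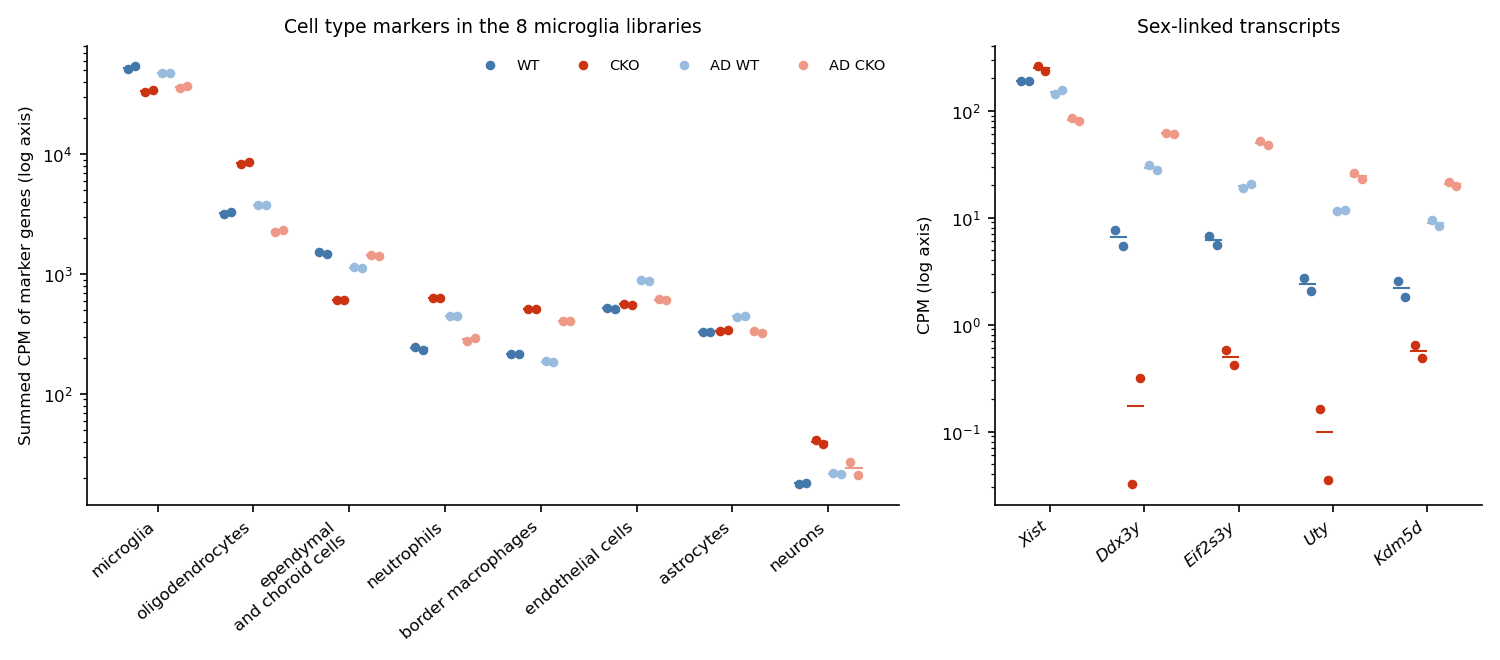
The left panel plots the summed CPM of marker genes of 8 cell types and the right panel the CPM of Xist and 4 Y-linked genes, on log axes, with 1 point for each of the 8 microglia libraries and a line at each group's mean. Oligodendrocyte and neutrophil sums are highest and Y-linked transcripts lowest in CKO, and Y-linked transcripts are highest in AD CKO.

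Rack1 itself was the first check of the labels. Rack1 (chromosome 11, 48800332 to 48806434, plus strand, mm10) was at 98.1 and 95.2 CPM in WT and 40.4 and 41.96 CPM in CKO. Both CKO libraries lay below both WT libraries, and the log2 fold change was -1.23 ± 0.06 (SE, edgeR quasi-likelihood test, adjusted p = 2.7e-15), so that 42.6% of the WT level was left. The loss was of like size on the AD background, -1.26, and the difference between the backgrounds was -0.03 (adjusted p = 0.87). The library kit does not mark strand, and Trim41 overlaps the end of Rack1 on the other strand by 31 bases. Trim41 was at 4.25 and 5.75 CPM in WT and 9.51 and 8.96 CPM in CKO, a rise of 0.89 ± 0.18 (adjusted p = 3.2e-04). Over all genes tested 17.7% rose and 15.9% fell at an adjusted p of 0.05. Within 500 kb on either side of Rack1 15 other genes were tested, of which 9 rose and the other 6 did not pass. That stretch holds the interferon-inducible GTPase genes Irgm1, Tgtp2 and Ifi47, whose values are given with their family.

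Of 17318 genes tested, 33.6% passed an adjusted p of 0.05 in CKO against WT (edgeR quasi-likelihood test, Benjamini-Hochberg over all genes tested). Higher in CKO were 3059 genes, 17.7%, and lower were 2756, 15.9%. The list counts below are to be read beside these 2 shares. The 2 groups did not overlap for 64.2% of all genes, so that separation alone says little of any one gene. Large rises outnumbered large falls: 829 genes rose and 550 fell at least 2-fold, and 94 rose and 50 fell at least 8-fold. On the 16796 genes outside the X and Y chromosomes the calls of the same fit were 2975 up and 2652 down, while a fit without X- and Y-linked genes called 2725 up and 2938 down. In AD CKO against AD WT, which shares no library with CKO against WT but shares its normalisation and dispersion, 32% of genes were called. Of the 3059 genes up in CKO, 1736 were also up there, which is 56.8% of the first list and 59% of the second, and 270 were called in the opposite direction. Of the 2756 genes down in CKO, 1397 were also down there, 50.7% and 53.7% of the lists, and 70 were opposite. The knockout effect itself differed between the backgrounds for 12.7% of all genes, 2202, a count that fell to 1457 without AD WT replicate 1 and to 1385 without AD WT replicate 2.

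**Figure D2:**
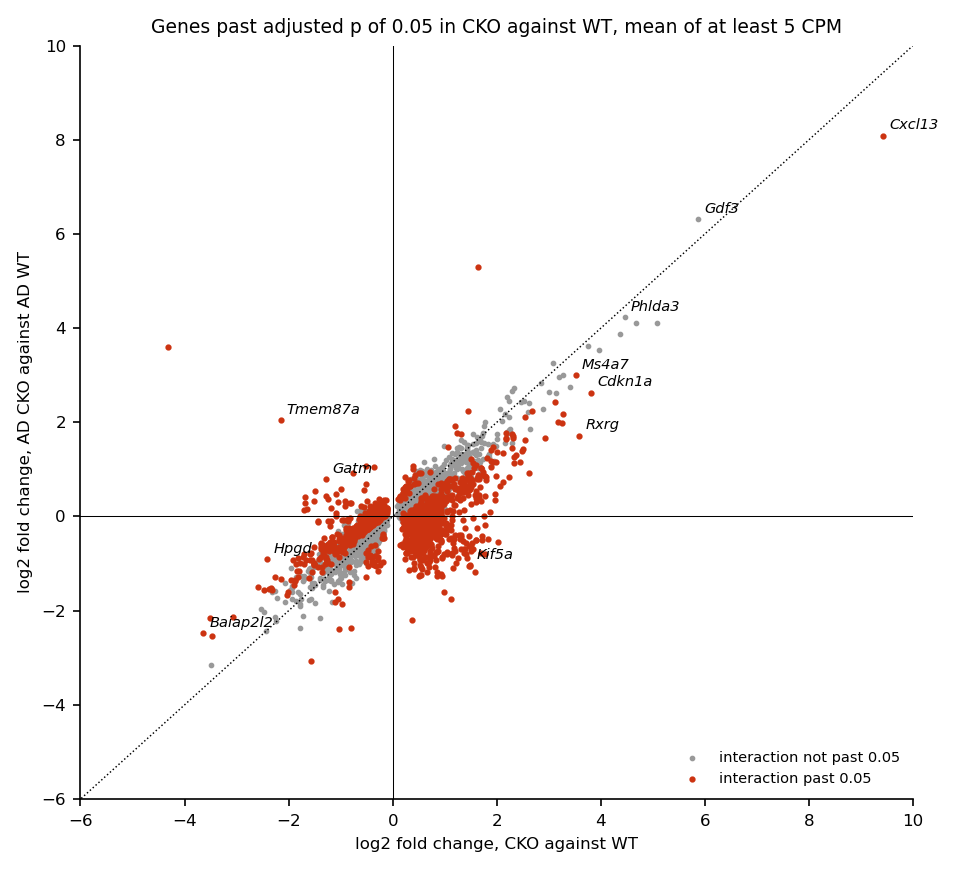
Each point is a gene past an adjusted p of 0.05 in CKO against WT with a mean of at least 5 CPM. The x axis is its log2 fold change without the AD model and the y axis that on the AD background, the dotted line marks equality, and red marks genes whose 2 effects differed by the interaction test. Cxcl13 and Gdf3 lie at the upper right on both axes, and Tmem87a lies at the upper left.

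Among genes with a mean of at least 5 CPM, the largest rise was that of Cxcl13, the chemokine that draws B cells through CXCR5. Cxcl13 was at 0.676 and 0.925 CPM in WT and 553 and 553 CPM in CKO, a log2 fold change of 9.43 ± 0.09 (SE, adjusted p = 2.8e-32). It was nearly absent from both WT libraries and abundant in both CKO libraries. Gdf3, which encodes a TGF-beta superfamily ligand, was at 0.902 and 0.892 CPM in WT and 50.8 and 54.96 CPM in CKO, a rise of 5.88. Phlda3, a p53-induced inhibitor of AKT, was at 1.55 and 2.77 CPM in WT and 46.5 and 48.5 CPM in CKO (4.46). Cdkn1a, which encodes the cell-cycle inhibitor p21, was at 34.4 and 30.9 CPM in WT and 437 and 478 CPM in CKO (3.81 ± 0.06). Cdkn1a overlaps 1700023B13Rik on the other strand, which rose by 2.59, and their reads cannot be told apart without strand. The p53 genes are taken up as a group below. Ikbke, the kinase that with TBK1 phosphorylates interferon regulatory factors, was at 0.515 and 0.892 CPM in WT and 15.6 and 13.4 CPM in CKO (4.36). Cd40, the costimulatory receptor of antigen-presenting cells, was at 2.25 and 3.203 CPM in WT and 35.2 and 37.98 CPM in CKO (3.74). Rxrg, a retinoid X receptor, was at 2.13 and 3.67 CPM in WT and 34.1 and 35.1 CPM in CKO (3.58). Levels in the CKO pair were close to each other for each of these genes.

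The rest of the 20 genes with the largest rises included the MHC class I-like gene H2-M2 (5.08) and also H2-Q6 (3.25) and H2-Q7 (3.18), whose near-identical sequences make the split of reads between them uncertain. Tlr8, an endosomal RNA sensor, was at 4.29 and 5.15 CPM in WT and 45.95 and 40.6 CPM in CKO (3.20). C3, the central complement component, was at 10.4 and 9.15 CPM in WT and 84.04 and 86.8 CPM in CKO (3.12). Ms4a7, a membrane protein typical of border macrophages, was at 12.8 and 12.2 CPM in WT and 144 and 142 CPM in CKO (3.52). These 3 genes gave tight pairs in both groups. Clec12a, an inhibitory lectin, rose by 3.08. Aoah, the enzyme that deacylates bacterial endotoxin, was at 7.41 and 8.72 CPM in WT and 67.4 and 61.2 CPM in CKO. The remaining 5 were Inka2 (3.97), Gpr31c (3.41), Adam19 (3.27), Emilin1 (3.27) and Klra2 (3.15). All 20 rose on the AD background too, where Cxcl13 was up by 8.09. The rise of Cxcl13 was smaller there (interaction -1.34, adjusted p = 2.8e-05), as were those of Rxrg (-1.86), Cdkn1a (-1.18) and H2-Q6 (-1.27).

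**Figure D3:**
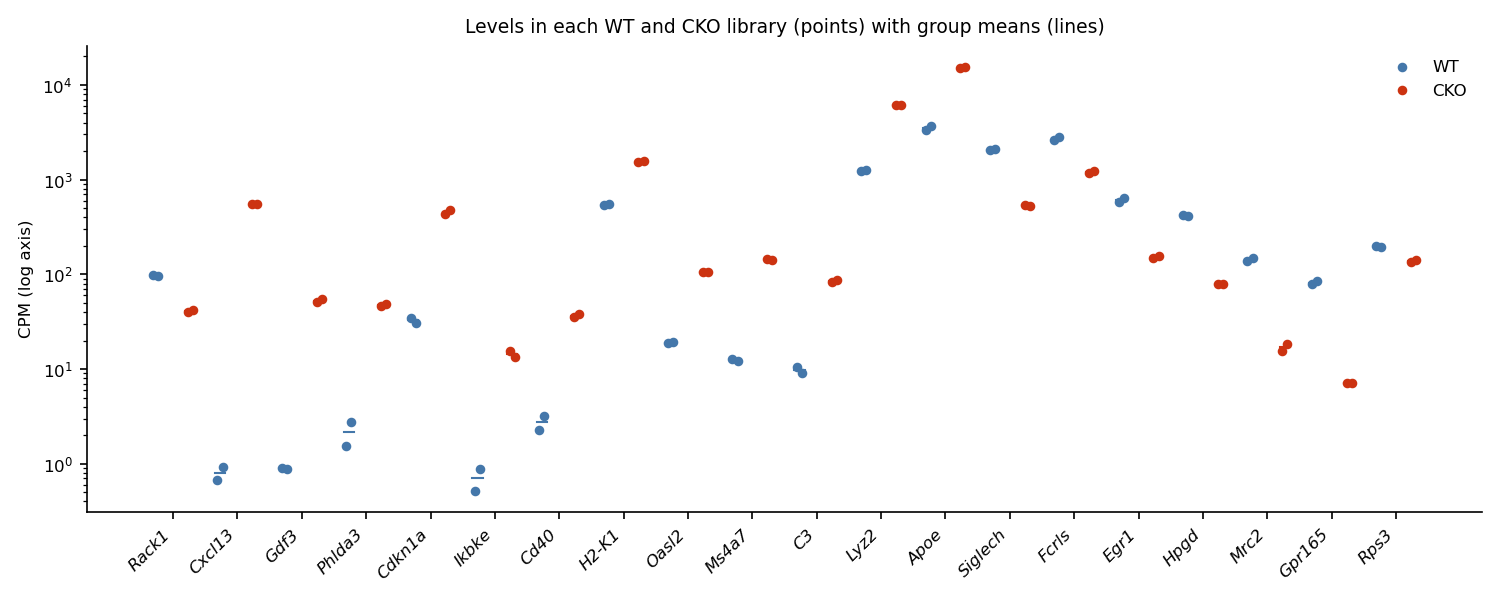
CPM on a log axis of 20 genes in the 2 WT libraries (blue points) and the 2 CKO libraries (red points), with a line at each mean. Replicates lie close together, and Cxcl13 spans the widest gap, from below 1 CPM to 553 CPM.

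Ptger3 and Hpgd were among the 20 largest falls. Ptger3, a receptor of prostaglandin E2, was at 15.5 and 14.9 CPM in WT and 1.46 and 1.22 CPM in CKO, a log2 fold change of -3.50 ± 0.24 (SE, adjusted p = 1.6e-12). Hpgd, which inactivates prostaglandins, was at 422 and 415 CPM in WT and 78.98 and 78.6 CPM in CKO (-2.41 ± 0.05). Gpr165, an orphan receptor, was at 78.8 and 84.8 CPM in WT and 7.204 and 7.08 CPM in CKO (-3.52). Mrc2, an endocytic collagen receptor, was at 138 and 149.7 CPM in WT and 15.7 and 18.6 CPM in CKO (-3.07). Baiap2l2 was at 10.6 and 12.1 CPM in WT and 0.844 and 0.977 CPM in CKO (-3.64). The largest rises and falls were chosen among genes whose groups do not overlap, so their separation is part of that choice. Gprasp2 was at 26.4 and 24.7 CPM in WT and 1.82 and 2.83 CPM in CKO (-3.46), but its reads overlap those of Bhlhb9 on the same strand, which fell by 1.51. The other 14 genes with the largest falls lay between -2.60 for Mycl, a MYC-family factor, and -2.15 for Upk1b. They included Igf2bp2 (-2.48), Liph (-2.47), Crybb1 (-2.38), Jam3 (-2.34), Kcnma1 (-2.32), Col25a1 (-2.31), Gpd1 (-2.26) and Tnfrsf17 (-2.24). Hpgd, Jam3 and Kcnma1 each overlap a low-level transcript that fell as well. Of the 20, 19 fell on the AD background and Tmem87a rose there.

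Interferon-stimulated genes rose as a group. Their promoters often carry the interferon-stimulated response element (ISRE), bound by interferon regulatory factors, here searched as GAAANNGAA on both strands. Promoter windows from 250 bases before to 50 after the start, from RefSeq on GRCm38.p6, were held for 44 of the 59 tested genes of the list, and 26 of them (59.1%) had a match, beside 9.03% of the 11976 tested genes with a window. For the interferon-inducible GTPases 9 of 10 had one. Both lists are of genes named for their answer to interferon. Among genes with a window, a match was held by 14.8% of those up at least 2-fold and 12% of those down at least 2-fold. Of the ribosomal protein genes, which mostly fell, 19.7% had one. Of the other motifs searched, the GAS element TTCNNNGAA was matched in 15.9% of the interferon-stimulated genes and 8.33% of tested genes, the AP-1 motif TGANTCA in 25% and 6.48%, and the NF-kB motif GGANTTNCC in 4.55% and 4.89%. The promoters of 5 genes whose rises are reported here are shown because they hold an ISRE match, which is in capitals. They are written 5′ to 3′ on the gene's strand. Each of the 5 genes lies on the minus strand: Ifi44 at chr3:151749861-151750160, Ifi207 at chr1:173741760-173742059, Samd9l at chr6:3399522-3399821, Cxcl10 at chr5:92348840-92349139 and Irgm1 at chr11:48871371-48871670.
Ifi44: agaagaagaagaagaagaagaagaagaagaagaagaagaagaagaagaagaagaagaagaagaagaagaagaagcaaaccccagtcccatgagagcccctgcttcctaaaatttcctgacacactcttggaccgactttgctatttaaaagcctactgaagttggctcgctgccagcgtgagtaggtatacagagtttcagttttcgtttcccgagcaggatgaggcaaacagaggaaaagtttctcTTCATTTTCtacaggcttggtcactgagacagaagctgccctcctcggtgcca
Ifi207: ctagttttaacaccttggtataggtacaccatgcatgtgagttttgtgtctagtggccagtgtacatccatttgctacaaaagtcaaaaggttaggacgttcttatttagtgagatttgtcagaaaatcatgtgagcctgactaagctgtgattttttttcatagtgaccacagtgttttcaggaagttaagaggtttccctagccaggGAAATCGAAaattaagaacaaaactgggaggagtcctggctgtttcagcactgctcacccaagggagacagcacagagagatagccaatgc
Samd9l: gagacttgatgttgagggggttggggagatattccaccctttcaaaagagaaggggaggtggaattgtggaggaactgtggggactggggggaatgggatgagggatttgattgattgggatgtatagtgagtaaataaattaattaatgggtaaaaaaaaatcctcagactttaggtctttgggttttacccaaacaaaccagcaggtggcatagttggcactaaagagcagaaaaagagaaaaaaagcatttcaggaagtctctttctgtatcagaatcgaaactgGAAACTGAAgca
Cxcl10: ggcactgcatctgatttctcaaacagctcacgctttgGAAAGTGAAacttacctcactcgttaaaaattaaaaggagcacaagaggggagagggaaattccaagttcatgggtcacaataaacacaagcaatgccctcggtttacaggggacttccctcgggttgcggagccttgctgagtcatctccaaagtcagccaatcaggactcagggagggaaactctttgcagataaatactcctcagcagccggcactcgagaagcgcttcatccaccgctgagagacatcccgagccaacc
Irgm1: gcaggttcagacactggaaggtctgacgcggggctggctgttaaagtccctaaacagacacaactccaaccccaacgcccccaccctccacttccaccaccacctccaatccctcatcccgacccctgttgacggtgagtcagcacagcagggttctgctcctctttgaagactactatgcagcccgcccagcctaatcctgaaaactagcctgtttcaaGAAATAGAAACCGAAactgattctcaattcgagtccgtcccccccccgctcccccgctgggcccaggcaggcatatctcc
The match began 3 bases before the start in Ifi44, 41 before in Ifi207, 39 bases into the transcribed part in Samd9l and 213 before in Cxcl10. Irgm1 held 2 overlapping matches. A match is a description of letters and no proof of a site.

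Members that make up a count of 5 or fewer below, and Ifi44, Trim41 and the sex-linked genes, were chosen for mention after their values were seen. Of 59 interferon-stimulated genes tested, 54 rose and 1, Slfn9, fell, for a median log2 fold change of 0.86 beside 0.04 over all genes. Oasl2, of the oligoadenylate synthetase-like family, was at 18.6 and 19.1 CPM in WT and 105 and 105 CPM in CKO (2.48 ± 0.07, adjusted p = 7.7e-21). Ifi207, an AIM2-like DNA-sensing family member, was at 18.1 and 19.8 CPM in WT and 96.4 and 90.05 CPM in CKO (2.30). Samd9l, an antiviral factor, was at 26.6 and 21.6 CPM in WT and 110.0 and 109 CPM in CKO (2.18). The WT and CKO libraries did not overlap for 57 of the 59, beside 64.2% of all genes tested. Ifit3, which binds foreign RNA, was at 27.7 and 27.8 CPM in WT and 86.05 and 85.97 CPM in CKO (1.63). Rtp4 rose by 1.78, Ifi44 by 2.61 and Lgals3bp by 1.23. Mx2, Ifi35 and Ifitm1 did not pass, with 0.23, -0.12 and -0.59. With the AD model 49 of the 54 rose as well, and the list's median was 0.47.

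The interferon-inducible GTPases, which act at the membranes of intracellular pathogens, moved the same way, with 11 of 16 up, Gbp7 and Gbp3 down and 0.88 as the median. Irgm1 was at 73.7 and 75.8 CPM in WT and 156 and 160.5 CPM in CKO (1.08 ± 0.06). Ifi47 was at 6.44 and 7.03 CPM in WT and 17.8 and 18.9 CPM in CKO (1.44 ± 0.14). Tgtp2 was at 14.6 and 14.1 CPM in WT and 38.6 and 35.05 CPM in CKO (1.36) and its near copy Tgtp1 did not pass (0.44). Irgm1, Ifi47 and Tgtp2 are the genes that lie within 500 kb of Rack1. Igtp (1.08), Iigp1 (1.11) and Gbp2 (1.15), which lie outside that window, also rose. Whether the place beside Rack1 has a part in the rises there was not tested. On the AD background 8 of the 11 rose. Gbp5 and Gbp9 did not pass, and the fall of Gbp3 (-0.27) was lost without either WT replicate (-0.25 and -0.28) or CKO replicate 2 (-0.18).

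The sensing and signalling genes of the interferon system were divided, 12 of 35 rising and 8 falling (median 0.05). Beside Ikbke, the transcription factors Irf7 (at 22.1 and 23.4 CPM in WT and 61.1 and 58.2 CPM in CKO, 1.39) and Stat2 (0.93) rose. Socs3, which brakes cytokine receptors, fell, from 144 and 162 CPM in WT to 56.8 and 61.4 CPM in CKO (-1.38), and so did the interferon-gamma receptor chain Ifngr1 (-0.57). Irf8 (-0.05) and the RNA sensor Tlr7 (-0.02) were abundant and did not pass.

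Genes of MHC class I presentation rose, among them heavy chains, the light chain and a peptide transporter. H2-K1 was at 535 and 557 CPM in WT and 1547 and 1590 CPM in CKO (1.52 ± 0.04, adjusted p = 1.7e-22). H2-D1 was at 1647 and 1749 CPM in WT and 5380 and 5674 CPM in CKO (1.70 ± 0.04). B2m, the light chain, was at 2532 and 2424 CPM in WT and 6186 and 5924 CPM in CKO (1.29 ± 0.03). All 3 were higher in both CKO libraries than in either WT library, though 64.2% of all genes tested were separate in 1 direction or the other. The peptide transporter gene Tap1 was at 68.7 and 69.1 CPM in WT and 156 and 162 CPM in CKO (1.21), and H2-Q5 rose by 2.55. In all 15 of 25 members rose, 14 of them also on the AD background, and the list's median in CKO against WT was 0.26. The 4 that fell were the loading chaperones Pdia3 (-0.56) and Calr (-0.47) and the proteasome genes Psmb10 (-0.19) and Psme1 (-0.14). The last 2 calls were weak: that of Psmb10 was lost without WT replicate 2 (-0.12) or CKO replicate 1 (-0.16), and that of Psme1 when any 1 of the WT, CKO and AD WT libraries was left out (-0.12 to -0.17). The immunoproteasome subunit Psmb8 (-0.07) and the bridging factor Tapbp (-0.09) did not pass. The constitutive proteasome went down by small steps: 21 of 31 subunits fell, 1 (Psmd14) rose and the median was -0.21. Psmb5, a catalytic subunit, was at 78.8 and 88.3 CPM in WT and 57.6 and 64.1 CPM in CKO (-0.46 ± 0.07). Psmb6, another, fell by 0.45. In AD CKO against AD WT 9 of the 21 fell. The rise of Psmd14 had an adjusted p of 0.052 without WT replicate 2 (0.20).

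The MHC class II list split. The classical chains and their invariant partner rose: Cd74 was at 974 and 1046 CPM in WT and 1857 and 1993 CPM in CKO (0.93 ± 0.04), H2-Aa rose by 1.02, H2-Ab1 by 0.96 and H2-Eb1 by 1.05. Of 15 tested, 6 rose and 5 fell, the falls including the peptide-editing chain H2-Ob (-0.41) and the protease Ctss (-0.18). For Cd74 the effect was 0.93 without the AD model and 0.05 with it (interaction -0.88, adjusted p = 3.6e-12). Of 22 costimulatory and checkpoint genes, 9 rose and 5 fell, and all 9 rose on the AD background. Pdcd1, the inhibitory receptor PD-1, was at 35.8 and 36.5 CPM in WT and 145 and 156 CPM in CKO (2.06 ± 0.06). Its ligand Cd274 was at 29.03 and 28.6 CPM in WT and 92.8 and 94.3 CPM in CKO (1.70 ± 0.06). Cd244a rose by 1.83. The phagocytosis checkpoint Sirpa fell by 0.50 and Cd276 by 1.27.

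**Figure D4:**
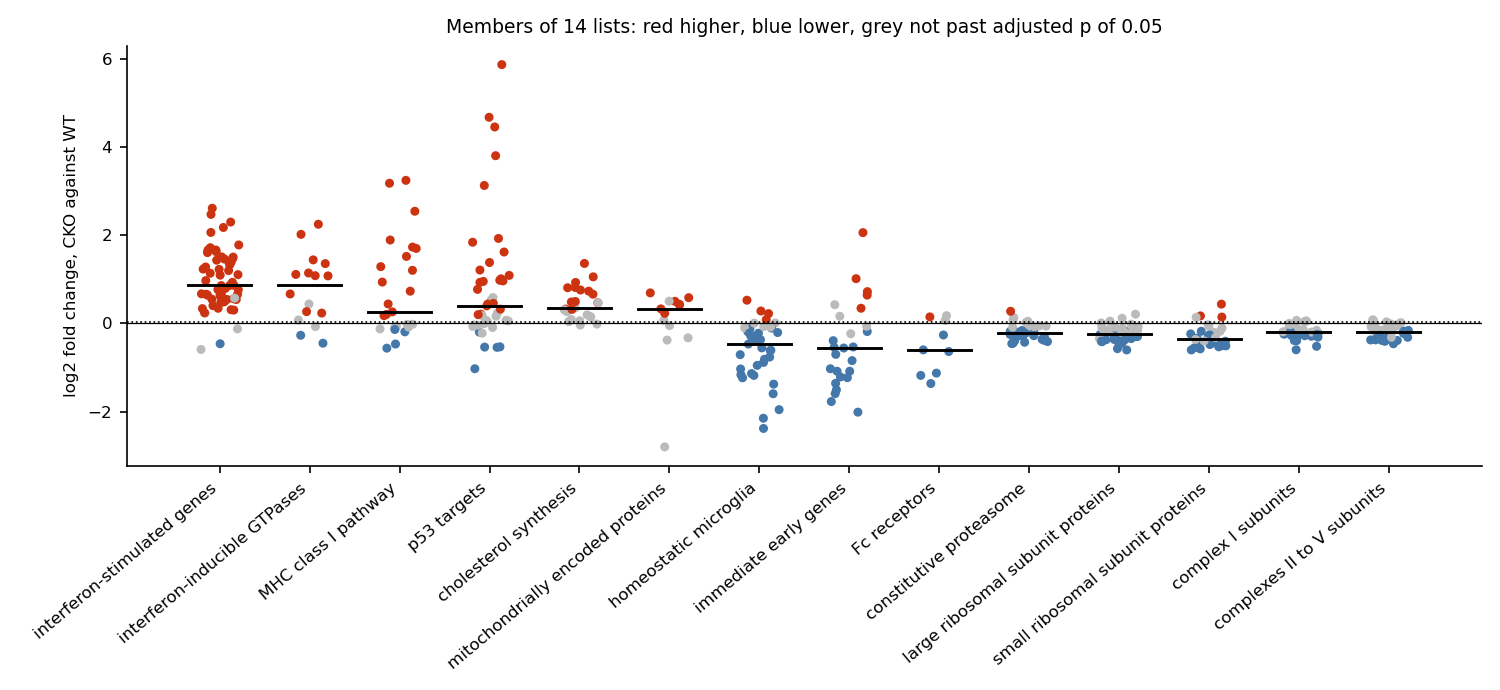
Log2 fold changes of the tested members of 14 lists, with 1 point a gene, a bar at each list's median and a dotted line at the median of all genes tested. The interferon-stimulated genes lie almost wholly above 0, the homeostatic and immediate early genes mostly below, and the subunits of ribosome, proteasome and respiratory complexes in narrow bands just below 0.

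Of 28 chemokine ligands 15 rose and 5 fell, and their median was 0.42. Besides Cxcl13, the interferon-inducible attractant of T cells Cxcl10 was at 12.2 and 13.97 CPM in WT and 54.1 and 55.2 CPM in CKO (2.07 ± 0.09). Cxcl16 was at 99.4 and 95.1 CPM in WT and 272 and 292 CPM in CKO (1.54 ± 0.05). Ccl6 went down, from 345 and 361 CPM in WT to 92.2 and 99.1 CPM in CKO (-1.88 ± 0.05). Ccl3 did not pass (0.04) and Ccl4 fell by 0.34. Between the AD groups 11 of the 15 rose, and Ccl3 and Ccl4 fell by 0.64 and 0.85. Among 17 receptors 7 rose and 5 fell. Cxcr4 was at 1.77 and 1.35 CPM in WT and 11.9 and 11.2 CPM in CKO (2.88 ± 0.19). Cx3cr1, the fractalkine receptor of resting microglia, was at 3962 and 4035 CPM in WT and 1920 and 1714 CPM in CKO (-1.14 ± 0.05). Ackr1 fell from 4.64 and 5.38 CPM to 0.552 and 0.488 CPM.

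The NF-kB list held 14 of 28 genes that rose and 3 that fell (Nfkb1, Rel and Map3k14), and its median was 0.18. The alternative pathway's factors rose: Relb was at 33.4 and 37.5 CPM in WT and 81.6 and 83.2 CPM in CKO (1.22 ± 0.07) and Nfkb2 was at 36.2 and 41.7 CPM in WT and 82.7 and 84.6 CPM in CKO (1.10 ± 0.07). The feedback gene Tnip1 was at 19.9 and 22.3 CPM in WT and 64.02 and 60.02 CPM in CKO (1.56 ± 0.08), and Traf3 rose by 0.80. The classical subunit gene Nfkb1 fell, from 151 and 164 CPM to 106 and 111 CPM (-0.54 ± 0.05), and Rela did not pass (-0.08). The falls of Rel and Map3k14 were lost without WT replicate 2 (-0.15 and -0.13) or CKO replicate 2 (-0.21 and -0.18), and that of Map3k14 also without either AD WT replicate (-0.20). On the AD background 12 of the 14 rose. Tnf, one of 7 of 19 TNF superfamily genes to rise, was at 13.3 and 12.6 CPM in WT and 29.4 and 31.8 CPM in CKO (1.24 ± 0.10), and its receptors Tnfrsf1a (0.07) and Tnfrsf1b (-0.11) did not pass.

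Interleukin-1 and inflammasome genes were mixed, 10 of 25 up and 6 down. The flagellin-sensing inflammasome gene Nlrc4 was at 0.5799 and 1.25 CPM in WT and 5.32 and 5.89 CPM in CKO (2.61), and the pyrin-binding Pstpip1 was at 6.15 and 8.45 CPM in WT and 41.5 and 39.5 CPM in CKO (2.47). The adaptor Pycard fell (-0.64), and Casp1 (0.04) and Il18 (-0.12) did not pass. Of 29 other cytokine and receptor genes 11 rose and 6 fell. Il2rg, the common gamma chain, was at 22.6 and 23.1 CPM in WT and 131 and 133 CPM in CKO (2.53 ± 0.06). Csf1r, the receptor on which microglial survival depends, was at 12170 and 12610 CPM in WT and 6978 and 7131 CPM in CKO (-0.81 ± 0.03). Il7r fell (-1.81), as did the interleukin-6 receptor chains Il6ra (-0.66) and Il6st (-0.71). Toll-like receptors and adaptors gave 9 up and 10 down of 28. Tlr2 was at 203 and 194 CPM in WT and 614 and 592 CPM in CKO (1.60 ± 0.05). The endotoxin co-receptor Cd14 fell without the AD model (-0.55) and rose with it (0.20), a difference of 0.75 (adjusted p = 1.8e-10). Among prostaglandin and leukotriene genes 7 of 29 rose and 8 fell. The receptor Ptger4 was at 8.47 and 10.9 CPM in WT and 33.3 and 30.9 CPM in CKO (1.73) while Ptger3 fell, and Cysltr1 fell (-1.33).

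Of 43 targets of p53 23 rose and 5 fell, and the median was 0.40. Trp53 itself was at 83.2 and 86.7 CPM in WT and 82.03 and 83.98 CPM in CKO (-0.03 ± 0.06, adjusted p = 0.71) and did not pass. Ccng1 was at 77.8 and 69.3 CPM in WT and 232 and 220.3 CPM in CKO (1.62 ± 0.06). Bax, the pore-forming apoptosis effector, was at 53.9 and 55.7 CPM in WT and 102 and 111 CPM in CKO (0.95 ± 0.06). Trp53inp1 was at 41.01 and 39.6 CPM in WT and 87.3 and 84.3 CPM in CKO (1.09 ± 0.07). The groups did not overlap for these 3 genes, as for 64.2% of all genes tested. Eda2r (5.87), D630023F18Rik (4.68) and Psrc1 (3.13) also rose, from low levels, and were chosen for mention after their values were seen. In the AD pair 20 of the 23 rose, and the list's median was 0.41. The 5 that fell were Btg2, Rrm2b, Sesn1, Perp and Trp53cor1. Without WT replicate 1 only 2 falls were called, since Perp (-0.44), Sesn1 (-0.16) and Trp53cor1 (-0.52) did not pass. Trp53cor1 also lost its call without WT replicate 2 (-0.57), either CKO replicate (-0.66 and -0.46) or AD CKO replicate 2 (-0.54). Btg2, also an immediate early gene, was at 720.2 and 733 CPM in WT and 339.6 and 373 CPM in CKO (-1.03).

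The p53 consensus decamer, a motif added after the results were seen and searched on both strands, was matched in 12 of the 32 p53 targets with a promoter window (37.5%), beside 8.53% of tested genes. That list is of genes named as p53 targets. Among genes with a window, a match was held by 9.48% of those up at least 2-fold and 7.63% of those down at least 2-fold. In the other lists searched the share lay between 4.35% (immediate early genes) and 30% (interferon-inducible GTPases, 3 of 10). The promoter of Cdkn1a is shown with its 2 matches in capitals. It is 1 of 2 windows for the gene, chr17:29090729-29091028, plus strand.
Cdkn1a: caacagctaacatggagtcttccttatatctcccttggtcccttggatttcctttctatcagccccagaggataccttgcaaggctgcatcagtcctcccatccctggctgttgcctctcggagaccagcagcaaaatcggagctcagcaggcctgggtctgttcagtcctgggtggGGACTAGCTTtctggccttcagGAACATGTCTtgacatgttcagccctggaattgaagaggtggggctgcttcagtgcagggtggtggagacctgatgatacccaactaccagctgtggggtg
The matches began 73 and 51 bases before the start.

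Of 28 S phase genes 4 rose (14.3%) and 2 fell, and of 30 G2 and mitosis genes 5 rose (16.7%), shares close to the 17.7% of all genes that rose. Mki67 was at 6.701 and 7.36 CPM in WT and 14.3 and 8.96 CPM in CKO (0.73), a rise that did not pass without CKO replicate 1 (0.32). Pcna was at 48.97 and 47.2 CPM in WT and 62.2 and 64.03 CPM in CKO (0.39) and Top2a did not pass (0.19). With the AD model 11 of the 30 mitosis genes fell. Among CDK inhibitors and cyclins 7 of 28 rose and 4 fell. Ccnd2 was at 10.9 and 11.1 CPM in WT and 28.9 and 27.4 CPM in CKO (1.36), and Cdkn1c, which encodes p57, fell (-1.29). The BCL2 family gave 7 up and 7 down of 23: the survival gene Bcl2l1 rose (0.52) and Mcl1 did not pass (-0.01).

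The stress programmes were not raised together. In the unfolded protein response 2 of 20 genes rose and 8 fell. The 2 were Xbp1, at 319 and 326 CPM in WT and 655 and 685 CPM in CKO (1.06 ± 0.04), and Herpud1 (0.34). The chaperones Pdia6 (-0.71), Pdia4 (-0.47) and Hsp90b1 (-0.44) fell. On the AD background 9 of the 20 rose and 2 fell. The integrated stress response had 6 of 26 up and 6 down, with Sesn2 up (0.93) and Phgdh (-0.91) and Aldh1l2 (-1.29) down. Of 14 heat shock genes Hsph1 rose and 3 fell, among them Hspa1b (-1.07). The Nrf2 antioxidant list had 11 of 23 up and 3 down. Osgin1 was at 7.92 and 7.53 CPM in WT and 32.2 and 39.7 CPM in CKO (2.22 ± 0.13), Srxn1 rose by 1.47 and the factor Nfe2l2 by 0.72, while the glutathione synthesis gene Gclc fell (-0.61).

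Immediate early genes, the first transcriptional answer to many stimuli and to tissue handling, were lower in CKO, 17 of 26 falling and 5 rising (median -0.55). Egr1 was at 588 and 644 CPM in WT and 151 and 154 CPM in CKO (-2.01 ± 0.05, adjusted p = 1.4e-22). Jun was at 914 and 1033 CPM in WT and 370.0 and 389 CPM in CKO (-1.36 ± 0.05). Fos was at 863 and 922 CPM in WT and 491 and 504 CPM in CKO (-0.84 ± 0.04). The CKO pair was below the WT pair in each, though 64.2% of all genes tested were separate in 1 direction or the other. Atf3 (-1.77) and Klf2 (-1.23) fell as well, and Dusp1 did not pass (-0.06). The 5 that rose were Klf4, Fosl2, Nr4a1, Nr4a2 and Nr4a3, of which Nr4a3 rose most, by 2.06, at levels below 1 CPM. Without WT replicate 1 the calls of Nr4a1 (0.23) and Nr4a2 (0.67) were lost, and that of Nr4a3 when any 1 of the 4 libraries was left out (1.64 to 2.36). In AD CKO against AD WT 16 of the 17 fell, and 3 of the 5 that rose here fell there. The SRF CArG box was matched in 3 of 23 promoter windows of the list (13%) and in 1.59% of tested genes, and the CRE TGACGTCA in 13% and 3.32%. Of 30 MAPK regulators 5 rose and 8 fell, including Map3k8 (0.70), which rose, and Mapk14, the p38 kinase (-0.33), which fell.

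Homeostatic microglial genes were lower in CKO, 28 of 37 falling and 4 rising (median -0.47). Siglech, a sialic-acid-binding receptor, was at 2046 and 2113 CPM in WT and 539 and 533 CPM in CKO (-1.96 ± 0.04, adjusted p = 7.6e-25). Fcrls was at 2653 and 2802 CPM in WT and 1177 and 1231 CPM in CKO (-1.18 ± 0.04). Each fell at least 2-fold with close replicates. P2ry12, the ADP receptor that steers microglial processes, fell by 0.19, and P2ry13 (0.01) and Sparc (0.01) did not pass. The 4 that rose, Kcnk13, Adora3, P2ry6 and Itgb5, rose by at most 0.53, and the rise of Itgb5 (0.09) was lost without WT replicate 1, either CKO, either AD WT or AD CKO replicate 1 (0.05 to 0.09), and under DESeq2 and other scalings. Between the AD groups 22 of the 28 fell, and the list's median was -0.27. The falls of Siglech and Fcrls were smaller there by 0.61 and 0.54, each past the interaction test.

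Among 43 microglial transcription factors 20 fell and 7 rose. Mef2c was at 675 and 678 CPM in WT and 471 and 461 CPM in CKO (-0.54 ± 0.04), Etv5 fell by 0.73 and Klf2 fell as given above. Irf8 and Zeb2 (0.02) did not pass. Bhlhe41 was at 47.0 and 47.8 CPM in WT and 79.8 and 79.1 CPM in CKO (0.75). In the TGF-beta and BMP list, a pathway on which microglial identity depends, 9 of 40 rose (22.5%) and 6 fell (15%). These shares were close to the 17.7% and 15.9% of all genes tested. Gdf3 and the receptor Acvrl1 (0.80) were among the rises. Tgfbr2 was at 859.8 and 858 CPM in WT and 1035 and 999 CPM in CKO (0.24).

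The disease-associated list, genes known to rise around amyloid, split, 17 of its 36 genes rising and 12 falling (median 0.07). Apoe, the main brain lipid carrier, was at 3341 and 3721 CPM in WT and 14930 and 15580 CPM in CKO (2.11 ± 0.04, adjusted p = 4.7e-15). Lyz2, lysozyme, was at 1239 and 1253 CPM in WT and 6073 and 6217 CPM in CKO (2.30 ± 0.03). Axl, a receptor for dying cells, was at 183 and 187 CPM in WT and 582 and 614 CPM in CKO (1.69 ± 0.04). Ank (-1.19) and the lysosomal inhibitor Cst7 (-0.95) fell, and Cd68 (0.08) and Ctsz (0.07) did not pass. Members of the same list thus moved in both directions by 2-fold and more. The rises of Apoe and Axl were smaller on the AD background, 0.74 and 0.33 (interactions -1.37 and -1.36).

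Phagocytic and pattern receptors were divided. Of 33 scavenger receptors and bridging genes 17 rose and 7 fell, 14 and 6 of them also on the AD background. Mrc1, the mannose receptor, was at 69.5 and 71.4 CPM in WT and 203 and 195 CPM in CKO (1.50 ± 0.06) and Cd36 was at 16.8 and 13.9 CPM in WT and 43.7 and 46.7 CPM in CKO (1.56 ± 0.10). Mertk did not pass (0.03) and its ligand Gas6 fell (-0.87). Of 9 Fc receptors 6 fell, the median being -0.60. Mrc1, like Ms4a7, is also a border macrophage marker. The inhibitory Fcgr2b was at 404 and 403 CPM in WT and 157 and 157 CPM in CKO (-1.36 ± 0.04) and the activating Fcgr3 was at 1541 and 1560 CPM in WT and 1012 and 1036 CPM in CKO (-0.60 ± 0.03). The signalling chain Fcer1g did not pass (0.07). Lectins split, with Clec4a3 (-2.03) and Clec4a2 (-1.56) down and Clec4e up (1.72), and Clec7a did not pass (-0.08). Siglec1 rose (1.55) while Siglecf (-1.37) and Siglecg (-1.85) fell. The Ms4a list had 8 of 11 up with a median of 1.72, all 8 also on the AD background, including Ms4a6c, at 30.03 and 25.3 CPM in WT and 92.3 and 89.8 CPM in CKO (1.72 ± 0.08).

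Among complement genes C3 and the anaphylatoxin receptors rose. C3ar1 was at 399 and 406 CPM in WT and 750.0 and 718 CPM in CKO (0.87 ± 0.04) and C5ar1 was at 183 and 185 CPM in WT and 490.1 and 511 CPM in CKO (1.44 ± 0.04), while the decoy-like receptor C5ar2 fell (-1.29). C1qa did not pass (0.09). Of 14 components 6 rose and 2 fell, and of 13 receptors and regulators 4 rose and 3 fell. Of 36 purinergic receptors and channels 14 rose and 13 fell. Gpr84, a receptor for medium-chain fatty acids, was at 142 and 149.6 CPM in WT and 506 and 521 CPM in CKO (1.82 ± 0.04), Kcnn4 was at 5.03 and 5.38 CPM in WT and 20.8 and 23.6 CPM in CKO (2.09) and the ATP-degrading Entpd1 fell (-0.61).

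Lysosomal genes split, 16 of 48 up and 21 down. Apart from Lyz2, Cst3 was at 20300 and 20600 CPM in WT and 10420 and 10730 CPM in CKO (-0.95 ± 0.03), Lgmn fell by 0.76 and Man2b1 by 0.99. V-ATPase subunits moved by at most 0.82, 6 of 17 up and 5 down, and of 29 autophagy genes 8 rose and 3 fell. Of 26 cholesterol synthesis genes 14 rose, the median being 0.34, and by edgeR 0 fell (0 at an unadjusted p under 0.05 and 0 by DESeq2). Cyp51 was at 23.1 and 25.7 CPM in WT and 48.3 and 53.4 CPM in CKO (1.06 ± 0.09). Msmo1 rose by 0.73 and Dhcr7 by 0.82. On the AD background 7 of the 14 rose. In all, 11 of the 26 rose there and 1 fell, with a median of 0.16. The oligodendrocyte marker sum was higher in CKO and lower in AD CKO, and its part in the cholesterol genes was not tested. Among efflux genes and LXR targets 9 of 20 rose, Apoc2 (2.54) and Npc2 (0.44) among them, and 6 fell, such as Lpcat3 (-0.66). In fatty acid handling 13 of 39 rose and 12 fell. Mgll, which releases arachidonate from endocannabinoid, was at 55.2 and 56.8 CPM in WT and 21.1 and 21.6 CPM in CKO (-1.39 ± 0.09). Lpl fell without the AD model (-0.51) and rose with it (0.69).

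Genes of the translation machinery that RACK1 belongs to fell by small amounts. Of 49 large-subunit ribosomal protein genes 27 fell, the list's median being -0.25, and by edgeR 0 rose (1 at an unadjusted p under 0.05 and 0 by DESeq2). Of 33 of the small subunit 20 fell and 3 (Rps27l, Rpsa and Rps2) rose, with a median of -0.36. The calls of Rpsa and Rps2 were weak: Rpsa lost its call without WT replicate 1 (0.10) or CKO replicate 2 (0.11), and Rps2 when any 1 of the WT and CKO libraries or AD CKO replicate 1 was left out (0.11 to 0.15), and both under DESeq2, with no filter and with the 4 libraries alone. Rps3 was at 201 and 196 CPM in WT and 134 and 141 CPM in CKO (-0.53 ± 0.05, adjusted p = 7.8e-10), Rpl7 was at 125 and 121 CPM in WT and 83.3 and 78.8 CPM in CKO (-0.60 ± 0.06) and Rpl3 was at 252 and 260.2 CPM in WT and 194 and 209.8 CPM in CKO (-0.34 ± 0.05). The groups did not overlap for any of the 3, as for 64.2% of all genes tested. Rplp0 did not pass (0.05). All 27 and all 20 fell on the AD background, where the medians of the lists were -0.42 and -0.49. Leaving out the library WT replicate 1 lowered the falls called to 17 of the large and 11 of the small subunit. Ribosomal protein genes have many processed copies, and the division of reads among them is uncertain. Of 10 elongation and release factors 8 fell, among them Eef1a1 (-0.19) and the release factor Gspt1 (-0.62), and Etf1 rose by 0.26, a call lost without CKO replicate 1 (0.08), WT replicate 2 (0.16) or AD CKO replicate 1 (0.23), and also under DESeq2 (0.24), other scalings, the 4 libraries alone and without X- and Y-linked genes. Initiation factors split, 7 of 42 up (16.7%) and 11 down (26.2%), beside 17.7% and 15.9% of all genes tested. Eif1a was at 61.3 and 64.4 CPM in WT and 101 and 103 CPM in CKO (0.70 ± 0.06), and Eif4a1 fell by 0.31. Of 78 mitochondrial ribosomal protein genes 4 rose and 4 fell.

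Ribosome biogenesis genes gave 5 of 31 up (16.1%) and 6 down (19.4%), shares close to the 17.7% and 15.9% of all genes tested. Myc was down (-0.55) and Rrp12 up (0.90). In the ribosome collision and quality control list 7 of 25 rose and 5 fell. Map3k20, the kinase ZAK that senses collided ribosomes, was at 18.3 and 16.9 CPM in WT and 46.3 and 40.1 CPM in CKO (1.29 ± 0.09, adjusted p = 6.5e-12). Gcn1, a collision sensor upstream of GCN2, was at 168 and 167 CPM in WT and 111 and 117 CPM in CKO (-0.56 ± 0.05). Both pairs were separate between the groups, as were those of 64.2% of all genes tested. Of the 9 protein kinase C genes, 1 changed: Prkca was at 38.9 and 44.9 CPM in WT and 17.9 and 16.8 CPM in CKO (-1.27 ± 0.10), while Prkcb (0.01) and Prkcd (-0.06) did not pass. Among 28 genes reported to encode RACK1 partners 8 rose, 7 fell and the median was 0.01. Fyn was at 26.7 and 29.8 CPM in WT and 47.2 and 50.9 CPM in CKO (0.80), Itgb1 fell by 0.43 and Pabpc1 (0.01) and Eif4e (-0.03) did not pass.

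Of 37 nuclear complex I genes 18 fell and of 39 of complexes II to V 19 fell, with medians of -0.20 and -0.19. By edgeR 0 rose in either (0 at an unadjusted p under 0.05 and 0 by DESeq2). Ndufa9 was at 87.8 and 84.6 CPM in WT and 59.1 and 54.8 CPM in CKO (-0.60 ± 0.06) and Atp5b was at 549.9 and 544 CPM in WT and 449 and 462 CPM in CKO (-0.26 ± 0.04). Of the 13 protein-coding genes of the mitochondrial genome 7 rose, with a median of 0.33. In the main edgeR fit 0 fell (0 at an unadjusted p under 0.05 and 0 by DESeq2). However, 1 was called lower by limma-voom and in 5 other edgeR settings, so the list was not raised throughout. In the main fit 4 had values below 0, the lowest being -2.80. mt-Co1 was at 2361 and 2307 CPM in WT and 3772 and 3777 CPM in CKO (0.69 ± 0.03) and mt-Nd1 was at 1002 and 959.6 CPM in WT and 1482 and 1459 CPM in CKO (0.58 ± 0.04). In the AD pair the nuclear genes fell again, 13 of the 18 and 16 of the 19, but of the mitochondrial genes 1 rose and 7 fell, and the effects on mt-Co1 differed by -0.83 (adjusted p = 2.0e-13). Without WT replicate 1 the complex I falls called were 11. Of 24 glycolysis genes 13 rose and 3 fell, and 8 rose without WT replicate 1. The lactate exporter gene Slc16a3 was at 56.7 and 69.4 CPM in WT and 129 and 128 CPM in CKO (1.03 ± 0.07), Pkm rose by 0.45, Ldhb fell by 0.63 and Gapdh did not pass (0.03). With the AD model 5 of the 13 rose. In iron handling the ferritin chains rose, Fth1 being at 2167 and 2129 CPM in WT and 3654 and 3606 CPM in CKO (0.76 ± 0.03) and Ftl1 up by 0.79, ceruloplasmin Cp was at 40.98 and 41.3 CPM in WT and 149.9 and 154 CPM in CKO (1.88 ± 0.06), and transferrin Trf fell (-1.03).

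**Figure D5:**
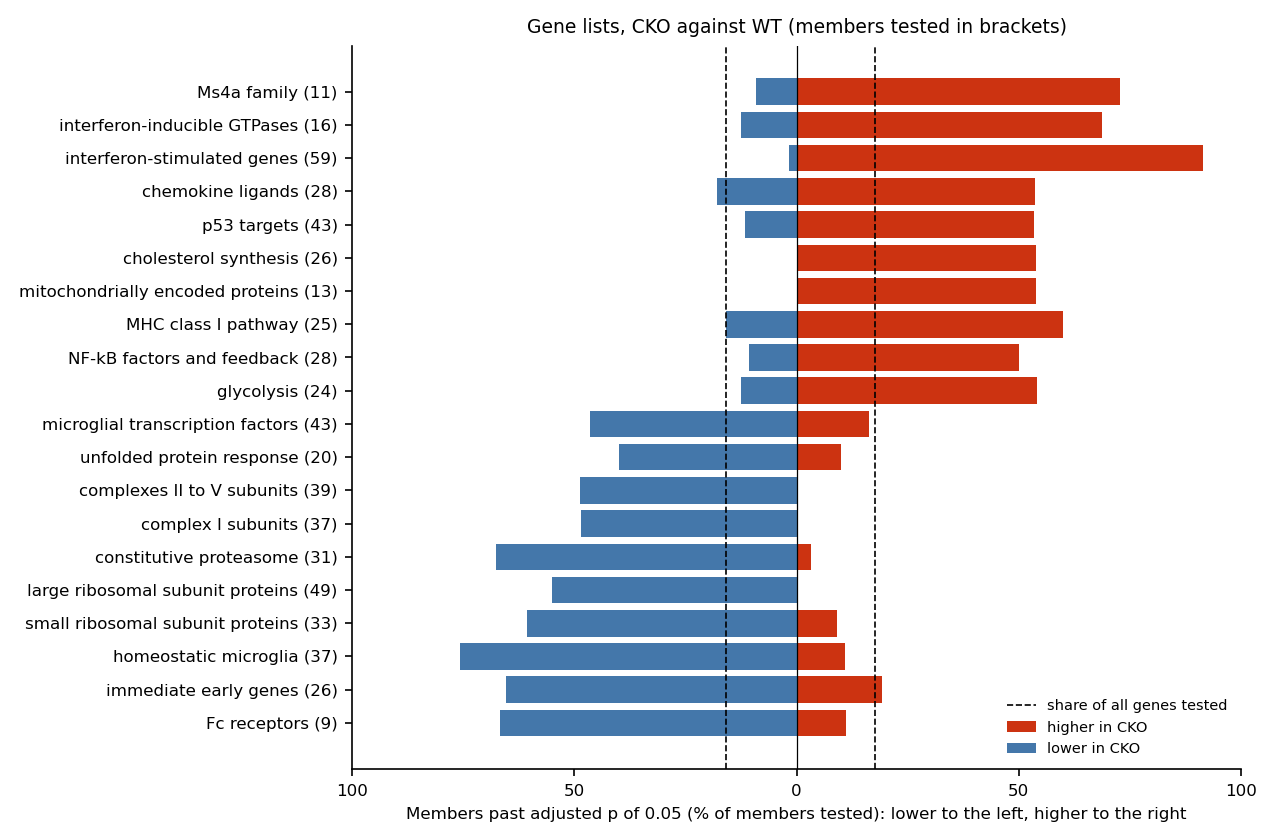
Share of the tested members of 20 lists that were higher (red, to the right) or lower (blue, to the left) in CKO at an adjusted p of 0.05, ordered by the list's median, with dashed lines at the shares of all genes tested, 17.7% up and 15.9% down. The interferon-stimulated genes reach 91.5% up, and homeostatic microglial genes 75.7% down.

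Adhesion and matrix genes changed in both directions. Of 28 integrin and adhesion genes 12 rose and 11 fell. Vcam1 was at 48.4 and 49.4 CPM in WT and 222 and 220.0 CPM in CKO (2.18 ± 0.06) and Itgal, the LFA-1 chain, was at 7.7 and 6.54 CPM in WT and 36.99 and 34.7 CPM in CKO (2.33 ± 0.12). Itga6 was at 325 and 322 CPM in WT and 132 and 126 CPM in CKO (-1.33 ± 0.05) and Selplg fell by 0.76. Of 33 matrix genes and proteases 18 rose and 7 fell, 9 of the rises also on the AD background and 7 members called in opposite directions there. Mmp2 was at 32.8 and 34.8 CPM in WT and 156 and 160.2 CPM in CKO (2.23 ± 0.06). Gpnmb was at 32.8 and 40.95 CPM in WT and 157 and 162 CPM in CKO (2.12 ± 0.07). Both rose on the AD background, while Mmp9, made also by neutrophils, rose here by 1.31 and fell there by 0.44. Of 26 trophic factor genes 10 rose and 5 fell, and Igf1 was at 23.8 and 21.6 CPM in WT and 40.6 and 39.1 CPM in CKO (0.81 ± 0.07).

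Some knockout effects were reversed on the AD background. Tmem87a was at 33.02 and 30.1 CPM in WT and 7.72 and 6.42 CPM in CKO (-2.16 ± 0.12), but rose on the AD background by 2.05, a difference of 4.20 (adjusted p = 3.6e-16). It overlaps Ganc on the other strand, as Folr1 does Anapc15, and neither Ganc nor Anapc15 passed. Gatm, in creatine synthesis, was at 489.9 and 492 CPM in WT and 207 and 197 CPM in CKO (-1.28) and rose by 0.79 on the AD background. Enpp2, Kl, Folr1 and Car12, genes that choroid plexus expresses, fell by 1.49, 1.68, 1.68 and 1.65 here and had values of 0.53, 0.41, 0.28 and 0.16 there. Enpp2, Kl and Folr1 are themselves members of the ependymal and choroid marker list, and Enpp2 is a large part of its sum, so that sum is no separate measure of them. At the other end stood genes of neurons and oligodendrocytes. Kif5a was at 123 and 135 CPM in WT and 356 and 369.8 CPM in CKO (1.49 ± 0.05) and fell on the AD background by 1.03. Kif1a, Ank3, Mapk8ip2 and Ppfia3 rose here by 1.49, 1.77, 2.03 and 1.58 and had interactions between -2.55 and -2.76. Their direction followed that of the oligodendrocyte marker sum. The neuronal marker sum was also higher in CKO, but it did not separate the AD groups. It was at 21.8 and 21.48 CPM in AD WT and 26.97 and 21.28 CPM in AD CKO. Of the 12 neuronal markers 2 were called higher there and 0 lower, with a median of -0.28. The part of oligodendrocytes and of neurons in these genes was not tested.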

How the data were processed

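RNA was sequenced from 8 microglia libraries, 2 in each of 4 groups, per the labels' protocols from TRIzol total RNA with the SMART-Seq v4 kit, which does not mark strand. The authors deposited a table of estimated counts per gene, and the submitters' processing notes name fastp, HISAT2, StringTie and mm10, with no version given. The deposited estimated counts were rounded to whole numbers. Genes with low counts were removed with edgeR's filterByExpr, leaving 17318 of 55414 features, and libraries were scaled by TMM. The groups were compared with edgeR 4.0.16 (R 4.3.3), with a robust quasi-likelihood F-test in 1 fit over the 8 libraries, adjusted by the Benjamini-Hochberg method over all genes tested, and called at an adjusted p of 0.05. A standard error (SE) is the log2 fold change divided by the root of F. With 2 libraries a group the precision is limited, and leaving out each library, other scalings and filters, limma 3.58.1 and DESeq2 1.42.0 were tried as alternatives. Gene positions are from GENCODE M21, which holds 94% of the features. Named genes are the 20 largest rises and 20 largest falls at a mean of at least 5 CPM with groups that do not overlap, leaving out clone-like names, the 8 largest interactions in each direction, and in each list up to 6 called members with the smallest p and up to 3 of the highest level that did not pass. Others were named after their values were seen. The members of the comparison and the 75 lists were chosen with earlier results of these data known. Some list members belong to families of near-identical genes, among them H2-Q6 and H2-Q7, Ifit3 and Ifit3b, and Tgtp1 and Tgtp2, and their split of reads is uncertain.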

Additional observations from a re-analysis of the deposited data

Results flagged for a closer look

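Of 294 tested genes named in the report, 148 passed the test of a difference between the knockout effect with and without the AD model (interaction, edgeR, adjusted p of 0.05). The 40 whose effects differed at least 2-fold are given here as the log2 effect on the AD background minus that without it. The other 108 differed by less. Of the 40 genes, 20 were called in opposite directions on the 2 backgrounds.

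The differences in sex-linked transcripts were 6.32 for Ddx3y, 4.94 for Eif2s3y and -1.26 for Xist. Genes that fell in CKO and fell less, did not pass or rose on the AD background included Tmem87a (4.20), Kl (2.09), Gatm (2.07), Enpp2 (2.02), Folr1 (1.96), Car12 (1.81) and Lpl (1.19). The myelin, axon and neutrophil-associated genes that rose in CKO and fell on the AD background were Kif5a (-2.52), Kif1a (-2.55), Ank3 (-2.56), Mapk8ip2 (-2.57), Ppfia3 (-2.76), Mbp (-2.09), Mobp (-2.46) and Mmp9 (-1.75). Immune and p53 genes whose rise was smaller with the AD model, or absent, were Cxcl13 (-1.34), Rxrg (-1.86), Ifi44 (-1.70), Oasl2 (-1.08), Pdcd1 (-1.40), H2-Q6 (-1.27), H2-Q7 (-1.17), Cdkn1a (-1.18), Adam19 (-1.09) and Itgal (-1.20). The lipid genes Apoe (-1.37), Axl (-1.36) and Apoc2 (-1.15) differed in the same direction. Falls that were smaller on the AD background were those of Hpgd (1.51), Gpr165 (1.36), Baiap2l2 (1.17) and Mycl (1.10). Trp53cor1 (1.12) fell in CKO and was called higher on the AD background. Among immediate early and proliferation genes the values were Nr4a2 (-1.65), Nr4a1 (-1.21), Klf4 (-1.20) and Mki67 (-1.12). What sets these differences was not tested.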

How the results depend on the processing

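Over 18 other settings no gene named in the report turned its direction while called, and 236 of the 255 called named genes kept their call throughout. The count of genes changed ranged from 4620 to 6142, and from 4620 to 5875 when a library was left out. Genes up ranged from 2239 to 3214 and genes down from 2197 to 3093. Which direction held more genes turned in 8 of these settings: 2502 rose and 2667 fell under DESeq2, 2842 and 2976 with RLE size factors, 2866 and 2971 with upper-quartile factors, 2700 and 3093 with no filter, 2685 and 2864 with the 4 libraries alone, 2239 and 2504 without CKO replicate 1, 2793 and 3076 without AD CKO replicate 1, and 2725 and 2938 without X- and Y-linked genes, an alternative chosen after seeing the data. Leaving out 1 library gave interaction counts between 1385 and 1968, beside 2202. Replicate numbers did not pair the libraries, since the correlation of same-numbered deviations lay between -0.03 and 0.037. With the replicate number as a block 6142 genes changed, 3214 of them up. Of the list counts, 28 of 720 moved by more than 1.5 times, most of them counts of 3 or fewer. They include 1 complex I gene up without WT replicate 1, and 1 mitochondrially encoded gene down by limma-voom, with no filter, without robust fitting, with the replicate block, with the 4 libraries alone and without CKO replicate 1. With 2 libraries a group, small changes in genes of few counts were not detectable.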
